A study of Homo sapiens with 6 samples.

Results

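The genes described here are 3 named families of splicing factors: the serine and arginine rich splicing factors (SRSF), the heterogeneous nuclear ribonucleoproteins (HNRNP) and the SF3A and SF3B subunits of the U2 small nuclear ribonucleoprotein (snRNP). They were chosen by name alone, as the rows of the deposited table called SRSF plus a number, HNRNP plus letters and an optional number, or SF3A or SF3B plus 1 digit, without pseudogenes. The rule found 37 of the 51537 genes of the table, made up of 11 SRSF, 18 HNRNP and 8 SF3 genes. The series compared 3 libraries of control H3122 cells with 3 libraries of H3122 cells that had been made resistant to crizotinib by raising its concentration stepwise from 0.1 to 10 µM in culture. H3122 is a human lung adenocarcinoma line that carries a fusion of EML4 with the receptor tyrosine kinase gene ALK, and crizotinib inhibits ALK and MET. The resistant cells are 1 derivative of 1 line, the labels name no drug for the control cells, and the labels do not say whether crizotinib was present at harvest, so drug exposure and resistance cannot be told apart. Nor do the labels tell whether replicates were cultured separately; the p-values thus cover the spread among these 6 libraries alone, which may be technical.

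Introns are removed by the spliceosome, whose U2 snRNP recognises the branch point with the help of the SF3A and SF3B complexes. SR proteins bind exonic sequences through RNA recognition motifs and recruit the spliceosome through a domain rich in serine and arginine. Many hnRNP proteins bind introns or exons and act in the opposite direction, so the balance of both groups sets which exons are kept. Several SR and hnRNP genes limit their own mRNA by including an exon with a premature stop codon, which sends the transcript to nonsense-mediated decay. A gene-level value adds up such isoforms and cannot separate them.

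Values are TPM (transcripts per 1000000, scaled by gene length), and group values are mean ± SD with n = 3. For most values above 0, that length matched all annotated exons of the gene together. Levels, ranks and ratios of different genes therefore depend on the annotation. Log2 changes are resistant minus control of log2(TPM + 1), with the standard error (SE), and a gene was called when its adjusted p in limma was below 0.05. The depth, rebuilt from the smallest step of the values, was an estimated 29.9 to 36.7 M reads (M, 1000000 reads) per library. A tested member held an estimated 1116 to 62396 reads per library. Transcripts of the mitochondrial genome took 19.4% to 23.7% of the control and 19.7% to 21.8% of the resistant TPM, the highest share being that of control replicate 1. Epithelial markers were abundant: KRT8 averaged 6492 (control) and 6226 TPM (resistant) and was not called, KRT19 and CDH1 rose by 26.3% and 28.2%, and EPCAM fell by 22.2%. Of the lung lineage markers, NKX2-1 and SFTPB were below 1 TPM in all libraries and NAPSA averaged 1.75 and 1.22 TPM. All 8 fibroblast and all 6 neuronal markers, 5 of 8 immune and 4 of 6 endothelial markers were also below 1 TPM in every library, DCN, LUM, LYZ and KDR being at 0. In bulk RNA, fewer cells of a kind and less RNA per cell cannot be told apart.

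In resistant cells 17 SRSF and HNRNP genes fell and none rose; HNRNPH2 fell by 53.6% and the other 16 fell by 10.2% to 30.8%. Of the SF3 genes, 2 rose, by 15.2% and 15.3%, and 1 fell by 17.5%. Of the 37 members, 35 passed the filter of 1 TPM in at least 3 libraries. Of these, 18 fell and 2 rose, and 15 were not called. Across all 16077 genes tested, 48.6% were called, 24.7% lower and 24% higher. Among the 4937 genes at or above the mean level of SRSF10 (28.7 TPM), the lowest tested member, 61.2% were called, 33.1% lower and 28% higher. The share of members called, 57.1%, thus lay between these backgrounds, the share called lower, 51.4%, above both and the share called higher, 5.71%, below both. The median log2 change was -0.15 over the 35 tested members, beside -0.0044 over all genes tested and -0.02 over the 4937. No member that was called changed its direction under any of 13 alternatives, and 16 of the 20 calls held under all of them. The count of members that rose was 4 without resistant replicate 1 and 1 without resistant replicate 2.

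**Figure D1:**
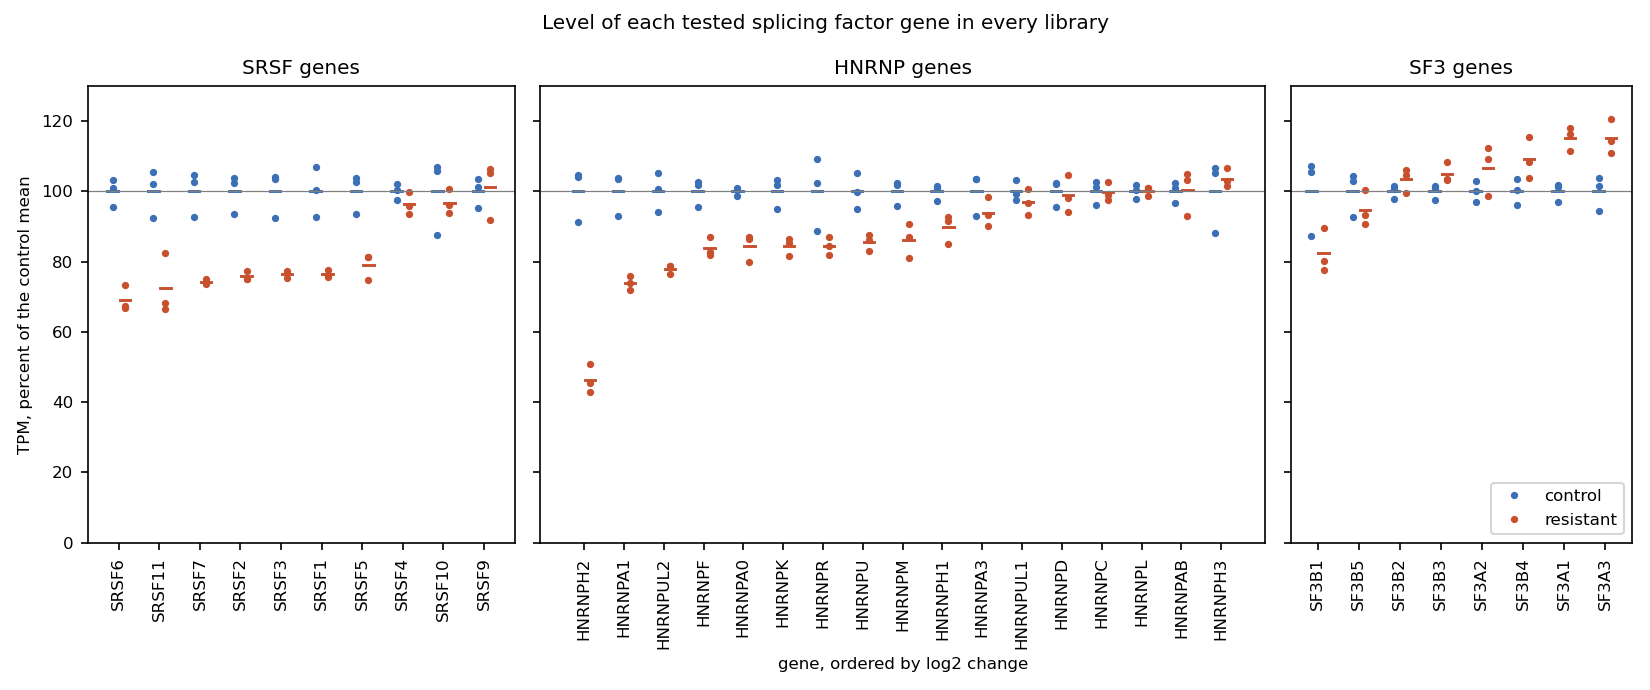
Level of the 35 tested genes in each of the 6 libraries, as a percent of the control mean of that gene (vertical axis), ordered by log2 change within each family (horizontal axis). Points are libraries and short lines are group means; 7 SRSF and 10 HNRNP genes have all 3 resistant points below all 3 control points.

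The SRSF family fell as a summed level in every resistant library. Its 11 genes added up to 1199.6, 1321 and 1321 TPM in the control libraries and to 1012, 1044 and 1013 TPM in the resistant libraries, a difference in group means of -20.1%. Of 10 tested genes, 7 fell, none rose and 3 did not pass the test, and the median log2 change was -0.38. The 7 that fell were SRSF1, SRSF2, SRSF3, SRSF5, SRSF6, SRSF7 and SRSF11, and in each of them the 2 groups did not overlap. Over all 35 tested members the groups did not overlap in 21, beside 57.9% of all genes tested and 68.3% of the 4937 more abundant ones, and 17 of the 21 were lower. Over all genes tested, 28.7% had resistant libraries that were all below the control libraries, and 36.2% of the 4937 more abundant genes did. All 7 calls held under all 13 alternatives.

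SRSF6 (ENSG00000124193, chromosome 20, 43457928 to 43464247), an SR protein with a pair of RNA recognition motifs, changed most within the family. It was at 165, 178 and 174 TPM in the control libraries and 115, 126 and 116 TPM in the resistant libraries. It fell by 0.53 on the log2 scale (SE 0.05, adjusted p = 1.68e-04). SRSF4, its close relative with the same domain order, was at 72.0, 73.9 and 75.3 TPM and at 68.9, 73.6 and 70.7 TPM, which overlap (log2 -0.05, adjusted p = 0.35). The ratio of SRSF6 to SRSF4 was 2.34 ± 0.06 in control and 1.68 ± 0.04 in resistant libraries. SRSF5, the third of these relatives, fell from 126 ± 7.05 to 99.8 ± 4.66 TPM (log2 -0.33, SE 0.06, adjusted p = 0.00222).

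SRSF3 (ENSG00000112081, chromosome 6, 36594353 to 36605600), the smallest SR protein, was the most abundant member of the family. It was at 308, 345 and 346 TPM in control and 256, 257 and 251 TPM in resistant libraries (log2 -0.38, SE 0.05, adjusted p = 8.23e-04). SRSF7, its nearest relative, which carries a zinc knuckle beside the RNA recognition motif, was at 110.4, 124.6 and 122 TPM in control and 89.3, 87.7 and 88.0 TPM in resistant libraries (log2 -0.43, SE 0.05, adjusted p = 5.22e-04). Both genes fell by a similar factor, and the ratio of SRSF7 to SRSF3 was 0.358 ± 0.00389 and 0.347 ± 0.00513. In both genes control replicate 1 was the lowest control library and still lay above every resistant library.

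SRSF1 (ENSG00000136450, chromosome 17, 58003360 to 58007346), the founding SR protein, was at 59.8, 64.7 and 69.0 TPM in control and 48.8, 49.98 and 49.0 TPM in resistant libraries (log2 -0.38, SE 0.06, adjusted p = 0.0013). SRSF9, the SR protein most like it, was at 153 ± 6.66 and 155 ± 12.5 TPM and was not called (log2 0.02, adjusted p = 0.868). SRSF2 (ENSG00000161547, chromosome 17, 76734115 to 76737374), a marker protein of nuclear speckles, was at 151, 165 and 167 TPM in control and 121, 124 and 121 TPM in resistant libraries (log2 -0.40, SE 0.05, adjusted p = 5.21e-04). The resistant values of SRSF1 and SRSF2 were tight, with SDs of 0.632 and 1.999 TPM, against 4.63 and 8.96 TPM among control libraries. SRSF11 (chromosome 1, 70205682 to 70253052), which contacts the U2AF splice site factor, was at 44.0, 50.3 and 48.5 TPM in control and 39.3, 32.5 and 31.6 TPM in resistant libraries (log2 -0.46, SE 0.09, adjusted p = 0.00448). Here resistant replicate 1 was the highest resistant library, yet below all control libraries. SRSF10, which can act as a splicing repressor, had the lowest TPM of the tested members of the family. It was at 29.2 ± 3.17 and 28.3 ± 1.05 TPM and did not pass the test (adjusted p = 0.713). SRSF12 was listed at 0.0209 to 0.0519 TPM in control and at 0 in resistant libraries, on an estimated 2 reads or fewer per library, too few for a difference to be detectable.

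The position of the genes was compared with the changes around them, since some chromosomes were lower as a whole in resistant cells, with median log2 changes of -0.58 on chromosome 13 and -0.34 on chromosomes 7 and X. For each member the median log2 change was taken over other protein-coding genes within 5 Mb whose mean reached 5 TPM. Around SRSF6, SRSF2, SRSF3 and SRSF5 these medians were 0.05 (52 genes), 0.08 (104 genes), 0.03 (100 genes) and 0.25 (52 genes), above 0 while the members themselves fell. Around SRSF1 and SRSF7 they were -0.06 (37 genes) and -0.17 (26 genes), smaller than the falls of 0.38 and 0.43. Around SRSF11 the median was -0.40 over 18 genes, close to its own -0.46. Around the HNRNP genes that fell, leaving out HNRNPH2, the medians ranged from -0.15 (HNRNPF, 21 genes) to 0.03 (HNRNPR, 99 genes). HNRNPF itself had a log2 change of -0.25. The plot of log2 changes gives each member beside this neighbourhood median.

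**Figure D2:**
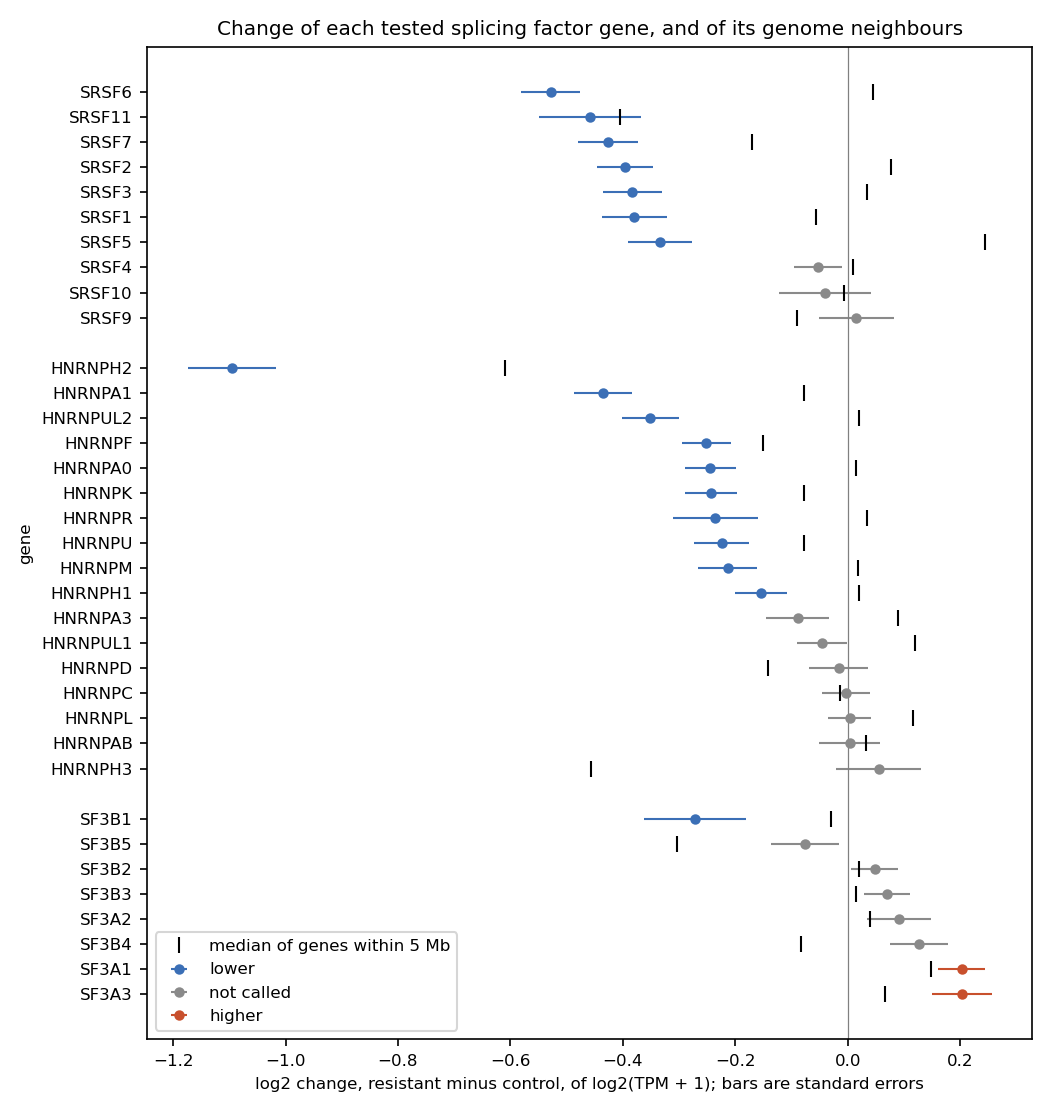
Log2 change of each tested member (horizontal axis; resistant minus control of log2(TPM + 1), points with standard errors), by family (vertical axis), coloured by call. Black ticks are the median change of protein-coding genes within 5 Mb; HNRNPH2 at -1.10 is farthest left, with a tick at -0.61.

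Since 7 SRSF genes fell together, the sequence before their transcription starts is shown for 3 of them, SRSF6, SRSF7 and SRSF3, beside SRSF4, which did not pass the test, HNRNPH2, the member with the largest fall, and SF3A1, which rose. Each is 150 bases ending just before the start, from RefSeq on GRCh38.p14, written 5′ to 3′ on the strand of the gene: SRSF6 at chr20:43457746-43457895 (plus), SRSF7 at chr2:38751495-38751644 (minus), SRSF3 at chr6:36594212-36594361 (plus), SRSF4 at chr1:29181901-29182050 (minus), HNRNPH2 at chrX:101408072-101408221 (plus) and SF3A1 at chr22:30356895-30357044 (minus). Capitals mark matches, on either strand, to the CCAAT box (CCAAT), the GC box (GGGCGG), an ETS site (CCGGAAG), an E-box (CACGTG), the core of a cyclic AMP response element (TGACG), the TATA box (TATAAA), a YY1 site (ATGGCGG) and the palindromic NRF1 site.
SRSF6: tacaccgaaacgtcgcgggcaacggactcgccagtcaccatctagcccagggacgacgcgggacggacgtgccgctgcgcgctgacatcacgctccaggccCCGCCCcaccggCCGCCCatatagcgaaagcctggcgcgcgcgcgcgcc
SRSF7: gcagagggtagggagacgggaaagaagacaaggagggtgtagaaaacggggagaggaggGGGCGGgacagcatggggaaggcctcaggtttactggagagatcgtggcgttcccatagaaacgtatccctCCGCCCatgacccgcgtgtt
SRSF3: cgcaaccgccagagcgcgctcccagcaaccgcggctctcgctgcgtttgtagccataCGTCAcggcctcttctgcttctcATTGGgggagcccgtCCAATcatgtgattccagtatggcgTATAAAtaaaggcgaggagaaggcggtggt
SRSF4: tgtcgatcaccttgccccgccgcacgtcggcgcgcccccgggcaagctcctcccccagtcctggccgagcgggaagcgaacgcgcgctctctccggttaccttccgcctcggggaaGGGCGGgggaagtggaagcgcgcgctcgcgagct
HNRNPH2: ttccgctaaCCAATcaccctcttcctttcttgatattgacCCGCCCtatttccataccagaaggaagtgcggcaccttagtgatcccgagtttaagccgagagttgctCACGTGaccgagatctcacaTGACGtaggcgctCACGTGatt
SF3A1: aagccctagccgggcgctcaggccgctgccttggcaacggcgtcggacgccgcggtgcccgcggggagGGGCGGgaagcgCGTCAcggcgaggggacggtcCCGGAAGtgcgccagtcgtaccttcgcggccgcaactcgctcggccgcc
SRSF3 shows a TATA box, a pair of CCAAT boxes on opposite strands and a TGACG core. SRSF6 and SRSF7 each show a pair of GC boxes and the uncalled SRSF4 a single GC box, all without a CCAAT box. HNRNPH2 shows a pair of E-boxes beside a CCAAT box, a GC box and a TGACG core, and SF3A1 an ETS site beside a GC box and a TGACG core.

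Over the whole RefSeq window of 300 bases (250 before the start and 50 after), 34 of the 37 members had a sequence; HNRNPA1, SF3B3 and SRSF2 did not. A GC box was present in 22 members (64.7%), beside 44.5% of the 5′-most windows of 27305 genes. It was in 8 of 16 members that fell, 11 of 14 that did not pass the test and both members that rose. An ETS site was present in 9 members (26.5%), beside 10.6% of all windows. It was in 2 of 16 members that fell, 5 of 14 that did not pass the test and both members that rose. The CCAAT box was in 14 members (41.2%, beside 35.7%), with 7 of 16 that fell, 6 of 14 that did not pass the test and 0 of 2 that rose. The TGACG core was in 12 (35.3%, beside 25.0%), with 7 of 16, 4 of 14 and 1 of 2. E-boxes were in 7 members (20.6%, beside 7.41%), TATA boxes in 4 (11.8%, beside 12.02%), YY1 sites in 4 (11.8%, beside 5.68%) and NRF1 sites in none (beside 1.37%). No motif searched contains another, both strands were searched, and a match is a description of letters only.

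Most HNRNP genes that fell did so by 10.2% to 16.0%; HNRNPH2, HNRNPA1 and HNRNPUL2 fell by 53.6%, 26.2% and 22.0%. Their summed level was 4481, 4826 and 4806 TPM in control and 4013, 4155 and 4017 TPM in resistant libraries, a difference in group means of -13.7%. Of 17 tested genes, 10 fell, none rose and 7 did not pass the test, with a median log2 change of -0.21. The 58.8% called lower stand beside 24.7% of all genes tested and 33.1% of the 4937 more abundant ones. In all 10 the groups did not overlap. Groups did not overlap in 57.9% of all genes tested and 68.3% of the 4937, and with resistant libraries lower in 28.7% and 36.2%.

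HNRNPH2 (ENSG00000126945, chromosome X, 101408295 to 101414133), a binder of G-rich RNA, was the only member with a change of at least 2-fold. It was at 117, 135 and 134 TPM in control and 65.4, 55.3 and 58.3 TPM in resistant libraries (log2 -1.10, SE 0.08, adjusted p = 4.03e-05). The highest resistant library was thus well below the lowest control library. HNRNPH1, a near-identical protein from chromosome 5, was at 93.2, 97.2 and 96.7 TPM and at 87.7, 88.7 and 81.5 TPM, which do not overlap either (log2 -0.15, SE 0.05, adjusted p = 0.0289). HNRNPH1 missed the threshold when control replicate 2, control replicate 3 or resistant replicate 3 was left out (adjusted p = 0.0875, 0.0947 and 0.108), and likewise when low genes were kept (adjusted p = 0.0553) or limma ran without trend and robust estimation (adjusted p = 0.067). The ratio of HNRNPH2 to HNRNPH1 moved from 1.34 ± 0.07 to 0.695 ± 0.0637, so their order reversed in TPM. This crossing of 1 depends on the exon lengths, 2223 bases for HNRNPH2 and 9480 for HNRNPH1. In estimated reads HNRNPH1 lay above HNRNPH2 in all libraries. Other expressed protein-coding genes on the X chromosome had a median log2 change of -0.34 (317 genes), and the 18 within 5 Mb of HNRNPH2 one of -0.61. The part of this region in the fall of HNRNPH2 was not tested. HNRNPF, the third protein that binds G runs, fell from 714 ± 27.3 to 599.7 ± 19.4 TPM (log2 -0.25, adjusted p = 0.00242), and HNRNPH3, a shorter relative, was at 49.2 ± 5.06 and 51.0 ± 1.30 TPM (adjusted p = 0.579).

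HNRNPA1 (ENSG00000135486, chromosome 12, 54280193 to 54287088), an abundant repressor of exon inclusion that shuttles between nucleus and cytoplasm, had the highest mean TPM of the members in control libraries. It was at 715, 799 and 796 TPM in control and 584, 569 and 553 TPM in resistant libraries (log2 -0.44, SE 0.05, adjusted p = 4.08e-04). Its order with HNRNPF turned in TPM. In control libraries the 2 genes overlapped, at 715 to 799 and 683 to 733 TPM. In resistant libraries HNRNPA1 lay at 553 to 584 TPM, below HNRNPF at 586 to 622 TPM. In estimated reads HNRNPA1 (26306 to 42575 per library) lay above HNRNPF (18096 to 25027) in all libraries. HNRNPA3, its close relative, was at 289 ± 17.4 and 271 ± 11.8 TPM and was not called (log2 -0.09, adjusted p = 0.229). HNRNPA0 fell from 305 ± 3.80 to 257 ± 12.2 TPM (log2 -0.24, adjusted p = 0.00314).

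HNRNPA1 has many processed pseudogenes whose sequences are close to its mRNA. The sources used here do not say how reads that fit several copies were counted, so its level is uncertain by such reads. The table held 33 rows of HNRNPA1 pseudogenes, 16 of them at 0 in all libraries. Together they added up to 65.5, 84.3 and 72.2 TPM in control and 39.2, 33.9 and 36.3 TPM in resistant libraries. In TPM this was 9.61% and 6.41% of HNRNPA1, which is not a share of reads, since the lengths differ. Most of this TPM was HNRNPA1P33 (chromosome 10; picked with its values in view), which fell from 45.9 ± 5.38 to 16.1 ± 1.23 TPM (log2 -1.45, SE 0.09, adjusted p = 2.52e-05). Protein-coding genes within 5 Mb of it had a median log2 change of -0.26. HNRNPA1P33 has 561 exon bases and held an estimated 75 to 261 reads per library. HNRNPA1 has 5093 exon bases and held 26306 to 42575 reads. Rows of HNRNPK pseudogenes added up to 3.90% and 3.84% of the TPM of HNRNPK, and those of HNRNPA3 to 1.86% and 1.78%.

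Other hnRNP genes that fell encode proteins with different RNA-binding domains. HNRNPK (ENSG00000165119, chromosome 9, 83968083 to 83980616), which binds C-rich RNA through KH domains, was at 469.5, 511 and 503 TPM in control and 421, 427 and 403 TPM in resistant libraries (log2 -0.24, SE 0.05, adjusted p = 0.00353). HNRNPU (chromosome 1, 244840638 to 244864560), a nuclear scaffold protein, was at 251, 279 and 264 TPM in control and 228, 232 and 219 TPM in resistant libraries (log2 -0.22, SE 0.05, adjusted p = 0.00713). In neither gene did the groups overlap, and control replicate 1 was again the lowest control library in both. HNRNPUL2, a relative of HNRNPU, fell from 64.1 ± 3.60 to 50.01 ± 0.851 TPM (log2 -0.35, adjusted p = 0.00108), while HNRNPUL1 was at 247 ± 7.16 and 239 ± 9.45 TPM (adjusted p = 0.426). HNRNPM, a binder of GU-rich RNA, fell from 267 ± 9.61 to 230.3 ± 13.1 TPM (log2 -0.21, adjusted p = 0.0124). HNRNPR fell from 68.5 ± 7.13 to 57.8 ± 1.70 TPM (log2 -0.24, SE 0.08, adjusted p = 0.0353). HNRNPR missed the threshold without control replicates 2 or 3 in turn (adjusted p = 0.0933 and 0.1004) and without resistant replicates 2 or 3 (adjusted p = 0.075 and 0.1002), and likewise when low genes were kept (adjusted p = 0.0844) or limma ran without trend and robust estimation (adjusted p = 0.0694).

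Of the hnRNP genes that did not pass the test, HNRNPC, HNRNPL and HNRNPAB had the smallest differences. HNRNPC, which coats U-rich nascent RNA, was at 286 ± 10.1 and 285 ± 7.65 TPM, HNRNPL, which binds CA repeats, at 97.9 to 102 and 98.7 to 101.1 TPM, and HNRNPAB at 436 ± 12.6 and 438 ± 28.2 TPM. HNRNPD, which also directs decay of AU-rich mRNA, was at 126 ± 4.97 and 124 ± 6.56 TPM. HNRNPCL1, an HNRNPC-like gene, was listed at 0 in 5 libraries and at 0.0960 TPM in resistant replicate 1, an estimated 1 read, and was not tested.

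**Figure D3:**
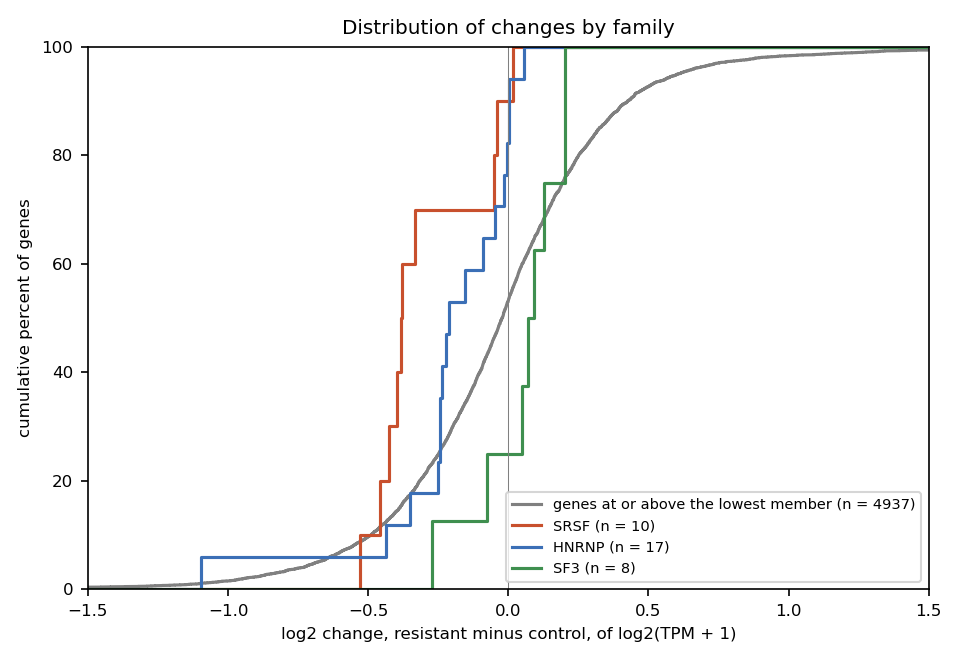
Cumulative percent of genes (vertical axis) against log2 change, resistant minus control of log2(TPM + 1) (horizontal axis), for the 10 SRSF, 17 HNRNP and 8 SF3 genes tested and for the 4937 tested genes whose mean reached 28.7 TPM. The SRSF line lies to the left of the grey line over most of the range, with a median of -0.38 against -0.02, and the SF3 median is 0.08.

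The SF3 genes had a higher median change than the other families, a difference that was not tested. Their summed level was 1086, 1181 and 1180.0 TPM in control and 1138, 1215.5 and 1169 TPM in resistant libraries, which overlap, and their median log2 change was 0.08. Of the 8 genes, 2 rose and 1 fell, and 5 were not called; the 25% that rose is near the 24% of all genes tested. SF3A1 (ENSG00000099995, chromosome 22, 30331988 to 30356947), the largest subunit of the complex that joins SF3B to the U2 snRNP, was at 101.4, 106 and 106 TPM in control and 116, 123 and 121 TPM in resistant libraries (log2 0.20, SE 0.04, adjusted p = 0.00578). SF3A3 (chromosome 1, 37956975 to 37990921), another subunit, was at 67.0, 72.1 and 73.7 TPM in control and 78.7, 85.6 and 81.1 TPM in resistant libraries (log2 0.20, SE 0.05, adjusted p = 0.016). In both genes all resistant libraries were above all control libraries, and the neighbourhood medians were 0.15 (49 genes) and 0.07 (76 genes). The call of SF3A3 was lost without resistant replicate 2 (adjusted p = 0.0524). SF3A2, the third subunit, was at 80.4 ± 2.31 and 85.8 ± 5.71 TPM and did not pass the test, except without resistant replicate 1 (adjusted p = 0.0375).

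SF3B1 (ENSG00000115524, chromosome 2, 197389784 to 197435091), the scaffold that clamps the branch point and a gene mutated in some cancers, was the only SF3 member that fell. It was at 108, 133 and 131 TPM in control and 111, 96.1 and 99.2 TPM in resistant libraries (log2 -0.27, SE 0.09, adjusted p = 0.0404). Resistant replicate 1 lay above control replicate 1, so the groups overlapped. The gene missed the threshold without control replicates 2 or 3 in turn (adjusted p = 0.109 and 0.12) and without resistant replicates 2 or 3 (adjusted p = 0.112 and 0.109), and likewise when low genes were kept (adjusted p = 0.0956) or limma ran without trend and robust estimation (adjusted p = 0.0763). The neighbourhood median of SF3B1 was -0.03 (31 genes). SF3B4, a subunit with RNA recognition motifs that contacts the region before the branch point, was at 236 ± 8.93 and 258 ± 13.7 TPM and was not called (log2 0.13, adjusted p = 0.0786), though it did without resistant replicate 1 (adjusted p = 0.0371) and after rescaling to nuclear protein-coding genes (adjusted p = 0.0389). SF3B2, SF3B3 and SF3B5 had log2 changes of 0.05, 0.07 and -0.08 and adjusted p-values of 0.376, 0.195 and 0.334. The ratio of SF3A1 to SF3B1 was 0.850 ± 0.0773 in control and 1.18 ± 0.12 in resistant libraries.

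Ratios within a library do not depend on how that library was scaled, so the change of related genes was also compared this way. Of 7 ratios, 6 are of genes for similar proteins and 1 is of 2 subunits. In all 7 the groups did not overlap, in 6 with the resistant ratio below the control ratio. In these 6 the gene with the lower log2 change was written first, so this direction follows from the single-gene changes. The pairs are of members chosen with earlier results of these data known. Ratios of other gene pairs were not computed, so these counts have no background beside them. With 3 libraries a group, the exact two-sided permutation test cannot go below p = 0.1, and each ratio had p = 0.1, also after adjustment over the 7. The difference in log2 ratio was largest for HNRNPH2 to HNRNPH1, at -0.95, then SRSF6 to SRSF4 and SF3A1 to SF3B1, at -0.48 and 0.48, SRSF1 to SRSF9 at -0.40, HNRNPA1 to HNRNPA3 at -0.35, HNRNPUL2 to HNRNPUL1 at -0.31 and SRSF7 to SRSF3 at -0.05. The control ratio of HNRNPA1 to HNRNPA3 was steady, at 2.66, 2.67 and 2.66, although the levels of both genes differed between these libraries. In resistant libraries it was 2.06, 2.11 and 2.12.

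**Figure D4:**
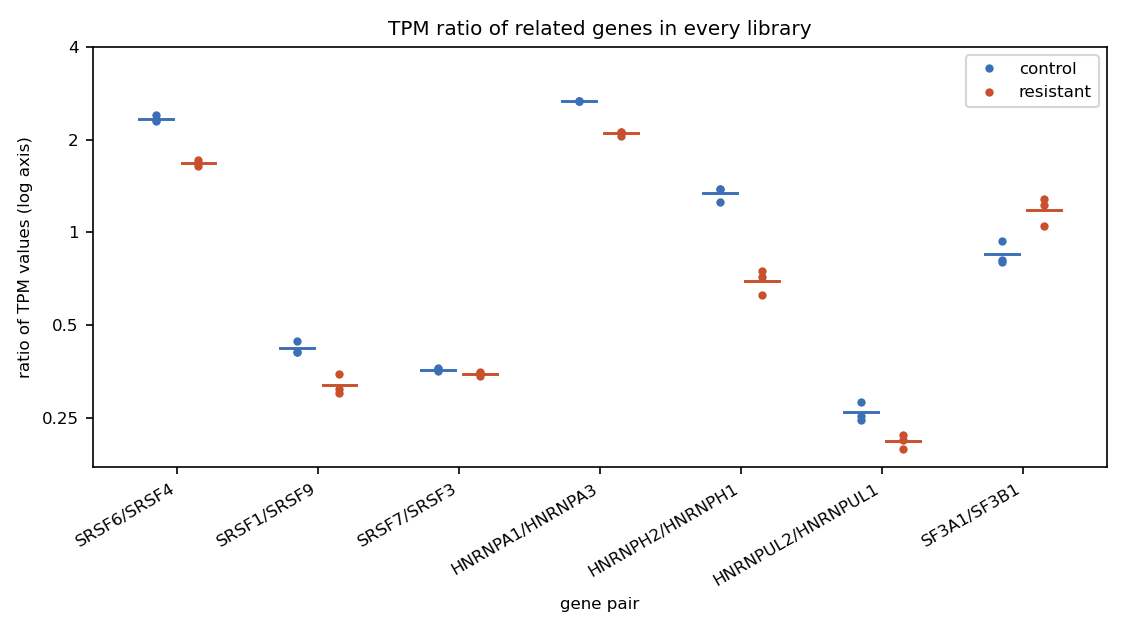
Ratio of the TPM values of 2 genes in each library (vertical axis, log scale) for 7 pairs (horizontal axis). Points are libraries and lines are group means. The HNRNPH2 to HNRNPH1 ratio lies above 1 in all 3 control and below 1 in all 3 resistant libraries, a crossing that depends on the exon lengths.

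Exons of some members overlap other genes, and although the kit keeps strand, whether the counting used it is not given in the sources used here. In GENCODE 29, 36.7% of the exon bases of SRSF2 overlap MFSD11 on the opposite strand (mean 9.37 TPM) and 46.2% of those of SRSF9 overlap GATC (28.9 TPM), and on the same strand 56.6% of those of SRSF1 overlap a protein-coding gene known only by a clone name, listed at 0 TPM. The values of SRSF1, SRSF2 and SRSF9 are less certain for this reason. The read-through gene HNRNPUL2-BSCL2 shares 44.2% of the exon bases of HNRNPUL2 and was at 0.0138 TPM. Another read-through gene, RPL36A-HNRNPH2, shares 16.3% of those of HNRNPH2 on the same strand and was at 0.0228 TPM. On the opposite strand, 15.6% of those of HNRNPU overlap COX20 (1.39 TPM) and 12.7% of those of SF3A2 overlap PLEKHJ1 (25.5 TPM). The same limit holds for these smaller shares.

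Some relatives fall outside the naming rule, because their table names hold a second letter block, an older symbol or a clone name. Of 6 such genes, 3 fell and 3 did not pass the test. HNRNPA2B1, the partner of HNRNPA1 in hnRNP core particles, was at 379, 437 and 417 TPM in control and 338, 324 and 316 TPM in resistant libraries (log2 -0.33, SE 0.06, adjusted p = 0.00259). HNRNPA2B1 lies on chromosome 7, whose median log2 change was -0.34. HNRNPDL fell from 122 ± 11.9 to 85.2 ± 5.56 TPM (log2 -0.50, adjusted p = 0.00159) and SRSF8, a relative of SRSF2, from 60.3 ± 2.44 to 48.3 ± 4.56 TPM (log2 -0.32, adjusted p = 0.00872). The neighbourhood medians of HNRNPA2B1, HNRNPDL and SRSF8 were -0.15, -0.08 and 0.12. SF3B6, which contacts the branch point, was at 199.7 ± 22.4 and 181 ± 7.80 TPM, and HNRNPLL at 24.8 ± 2.38 and 22.5 ± 1.01 TPM; both passed only without control replicate 1 (adjusted p = 0.0249 and 0.026). HNRNPA1L2, whose sequence is close to that of HNRNPA1, was at 5.45 ± 0.68 and 4.17 ± 0.63 TPM (adjusted p = 0.0667) and passed without resistant replicate 1 (adjusted p = 0.0256), with a filter at 5 TPM (adjusted p = 0.0486) and with median-ratio scaling (adjusted p = 0.0372).

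Other genes of the pathway were described by 11 lists of textbook members, whose counts stand beside a background of 24% higher and 24.7% lower over all genes tested, or 28% and 33.1% over the 4937 more abundant ones. In the Sm ring and U2 snRNP outside SF3, 7 of 17 tested genes rose, none fell and 10 did not pass the test (41.2% higher; median log2 0.06). The higher count was 5 without any 1 of the resistant libraries, when low genes were kept, and without trend or robust estimation. SNRPD2 and SNRPD3, proteins of the ring that holds spliceosomal RNAs, both rose, SNRPD2 from 440.2 ± 32.2 to 552 ± 35.5 TPM and SNRPD3 from 188 ± 7.32 to 236 ± 9.60 TPM (adjusted p = 0.00521 and 0.00117). SNRPA1, a U2 protein, rose from 29.9 ± 3.86 to 36.5 ± 1.15 TPM (adjusted p = 0.0323), a call lost without any 1 of the resistant libraries (replicates 1 to 3, adjusted p = 0.0811, 0.0699 and 0.0581), when low genes were kept (adjusted p = 0.0807) and without trend or robust estimation (adjusted p = 0.0607). Of 8 U1 snRNP genes, 1 rose and 1 fell. SNRPC rose from 263 ± 16.2 to 304 ± 11.1 TPM (adjusted p = 0.0152), a call lost when replicate 3 of either group was left out (adjusted p = 0.0569 for control and 0.0501 for resistant), and LUC7L2, a U1-associated gene on chromosome 7, fell from 25.5 ± 0.51 to 15.2 ± 0.47 TPM (log2 -0.71, neighbourhood median -0.51).

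Factors that recognise the end of the intron had 4 of 7 tested genes lower and none higher (median log2 -0.27). U2AF2, which binds the polypyrimidine tract, fell from 593 ± 13.5 to 362 ± 25.0 TPM (log2 -0.71, SE 0.05, adjusted p = 5.61e-05), while genes within 5 Mb of it had a median of 0.06. ZRSR2, a U2AF-related factor of the minor spliceosome on the X chromosome, fell from 14.6 ± 0.954 to 10.8 ± 0.843 TPM (log2 -0.41, neighbourhood median -0.27). SUGP1, a partner of SF3B1, fell from 18.2 ± 2.23 to 13.6 ± 0.658 TPM (log2 -0.39, neighbourhood median -0.03). U2AF1, the small partner of U2AF2, was at only 1.65 ± 0.541 and 2.77 ± 2.19 TPM (adjusted p = 0.445); GRCh38 holds a near-identical copy of this gene, so its value is uncertain. Of 23 tri-snRNP genes, 7 rose and 7 fell, 30.4% each, which is near the background. EFTUD2, a GTPase of the U5 snRNP, rose from 54.5 ± 1.86 to 73.6 ± 2.63 TPM (neighbourhood median 0.36) and LSM3 from 45.1 ± 4.06 to 57.6 ± 1.24 TPM, and LSM8 on chromosome 7 fell from 13.2 ± 1.96 to 8.41 ± 0.336 TPM (neighbourhood median -0.57). The lower count was 3 without control replicate 3 and 4 without resistant replicate 3. Among genes of the PRP19 complex and catalytic steps, 3 of 18 rose and 5 fell, with 1 higher without resistant replicate 2 and 3 lower without resistant replicate 3. DHX8, a helicase, rose from 19.1 ± 0.375 to 24.6 ± 0.679 TPM (log2 0.35, neighbourhood median 0.36). CDC40, a second-step factor, fell from 15.9 ± 1.17 to 11.2 ± 0.937 TPM (log2 -0.47, neighbourhood median -0.23). BUD31, on chromosome 7, fell from 36.7 ± 2.15 to 27.8 ± 1.37 TPM (log2 -0.39, neighbourhood median -0.57).

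**Figure D5:**
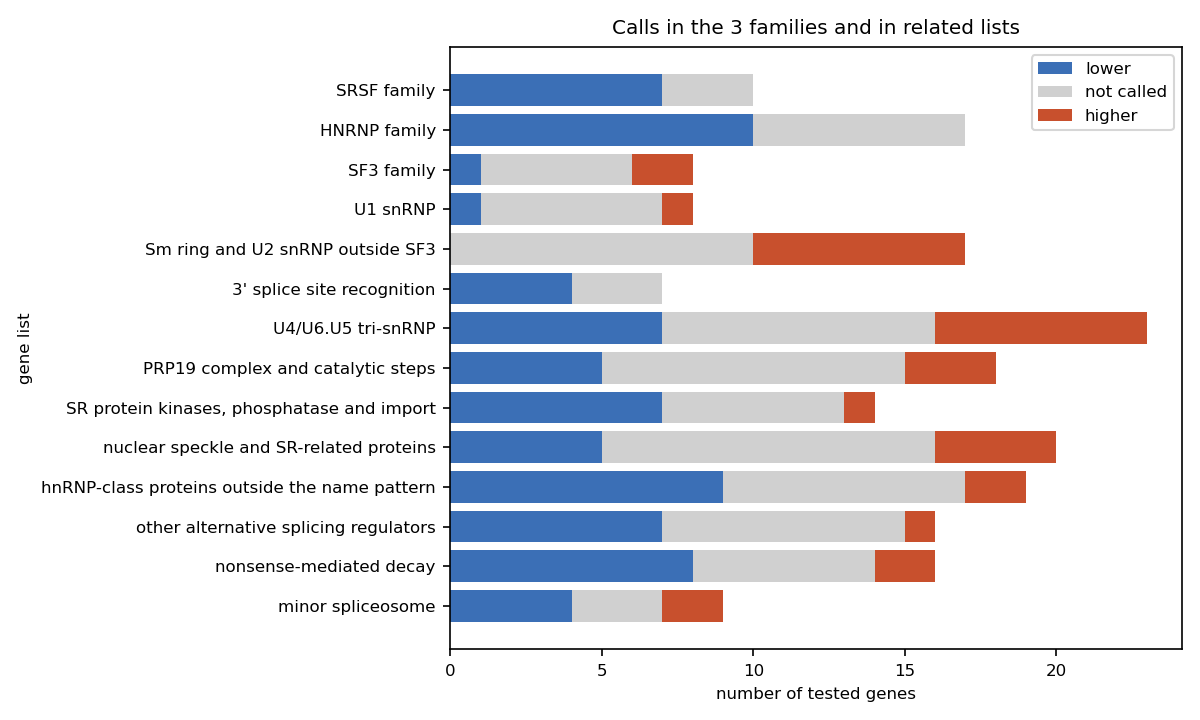
Number of tested genes (horizontal axis) called lower, not called or called higher in the 3 families and in 11 related lists (vertical axis). The Sm ring and U2 snRNP list has 7 higher and 0 lower, and the SRSF family 0 higher and 7 lower.

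SR proteins depend on kinases that phosphorylate them and on the importin TNPO3, which carries them into the nucleus. Of 14 tested genes of this list, 7 fell (50%), 1 rose (7.14%) and 6 did not pass the test (median log2 -0.22). Over all genes tested 24.7% were lower and 24% higher, and over the 4937 more abundant ones 33.1% and 28%. No gene of the list was called higher without resistant replicate 2. TNPO3, on chromosome 7, fell from 84.0 ± 2.42 to 51.5 ± 2.41 TPM (log2 -0.70, SE 0.05, adjusted p = 3.92e-05; neighbourhood median -0.50). CLK1, a nuclear kinase of SR proteins, fell from 26.9 ± 2.60 to 16.8 ± 1.28 TPM (log2 -0.65, adjusted p = 6.86e-04; neighbourhood median -0.06). CLK4 fell from 5.52 ± 0.518 to 3.96 ± 0.711 TPM (adjusted p = 0.0315), a call lost without control replicate 2 or 3 (adjusted p = 0.0649 and 0.108), resistant replicate 2 or 3 (adjusted p = 0.095 and 0.0956), and when low genes were kept (adjusted p = 0.069). SRPK1, the main cytoplasmic kinase, was at 53.4 ± 1.80 and 57.6 ± 2.24 TPM and did not pass the test (adjusted p = 0.109). Of 20 genes of nuclear speckles and SR-related proteins, 4 rose (20%) and 5 fell (25%), near the shares over all genes tested. The higher count was 2 without control replicate 1 or 2 or resistant replicate 2 or 3. NEAT1, the RNA scaffold of paraspeckles, rose from 47.7 ± 4.17 to 122 ± 18.1 TPM (log2 1.33, SE 0.11, adjusted p = 8.46e-05). ARGLU1 and SAP18, both on chromosome 13, fell from 102 ± 4.54 to 51.6 ± 2.52 TPM and from 66.7 ± 7.21 to 34.4 ± 2.26 TPM, with neighbourhood medians of -0.63 and -0.87.

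Further RNA-binding regulators leaned lower. Of 19 tested hnRNP-class genes outside the name pattern, 9 fell (47.4%) and 2 rose (10.5%), with a median log2 change of -0.16. Over all genes tested 24.7% were lower and 24% higher, and over the 4937 more abundant ones 33.1% and 28%. RBMX, an hnRNP G gene on the X chromosome, fell from 163 ± 10.3 to 109 ± 2.13 TPM (neighbourhood median -0.56), FUBP1 from 113 ± 7.31 to 76.9 ± 1.71 TPM (-0.53) and PTBP2, the neuronal relative of PTBP1, from 6.55 ± 0.513 to 3.55 ± 0.0834 TPM (-0.52). Of 16 other regulators of alternative splicing, 7 fell (43.8%) and 1 rose (6.25%). The gene that rose reached 1 TPM in the resistant libraries alone, so it passed the filter only through them. It was thus not tested when any 1 of these was left out or with a filter at 5 TPM, and none was then called higher. MBNL3, on the X chromosome, fell from 11.2 ± 0.595 to 6.17 ± 0.792 TPM, RBM5 from 11.8 ± 0.635 to 8.16 ± 0.32 TPM and QKI from 10.7 ± 0.306 to 7.51 ± 0.201 TPM. Their log2 changes were -0.77, -0.48 and -0.46, with neighbourhood medians of -0.53, 0.05 and -0.12. In nonsense-mediated decay, which removes the isoforms by which SR genes limit themselves, 8 of 16 genes fell (50%) and 2 rose (12.5%). The median log2 change was -0.17. UPF3A, on chromosome 13, fell from 47.4 ± 4.05 to 27.4 ± 0.552 TPM, MAGOH, an exon junction protein on chromosome 1, from 77.5 ± 7.71 to 51.6 ± 2.31 TPM and SMG1, a kinase of the pathway, from 23.8 ± 0.491 to 16.8 ± 2.003 TPM, with neighbourhood medians of -0.57, -0.92 and 0.03. Of 9 minor spliceosome genes, 2 rose (22.2%) and 4 fell (44.4%). ZMAT5 rose from 10.1 ± 1.21 to 14.5 ± 1.44 TPM (adjusted p = 0.0072), and SNRNP48 fell from 17.2 ± 1.23 to 13.6 ± 1.27 TPM (adjusted p = 0.0164), a call lost when control replicate 3 or resistant replicate 2 was left out (adjusted p = 0.0614 and 0.0523). Of the minor spliceosome genes, 1 was higher without control replicate 1 or 3 or resistant replicate 2 or 3, and 2 were lower without control or resistant replicates 2 or 3.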

How the data were processed

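The authors deposited 1 table of TPM for 51537 genes with a column per library, each column summing to 1000000. The submitters' processing notes name HISAT2; versions, the build and annotation used for alignment, and how reads were counted and filtered are items not given in the sources used here. Per the labels' protocols, polyadenylated RNA was selected and a stranded KAPA kit was used. TPM divides by gene length and rescales each library, so a large gain of one gene lowers the others.

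Coordinates, gene types and exon lengths are from GENCODE 29 on GRCh38, in which all 51537 identifiers were found. TPM times exon length was a whole multiple of one step, within 0.01 read, for 67.1% to 67.9% of values above 0, which gave the depth estimate. A linear model of log2(TPM + 1) on group was fitted to all 6 libraries with limma 3.58.1 in R 4.3.3, with trend and robust estimation (statmod 1.5.0), over the 16077 genes that reached 1 TPM in 3 or more libraries. Tests were two-sided, with Benjamini-Hochberg adjustment over all of them. The fit was tested on simulated data. Replicate numbers were not used to pair the libraries in this fit.

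The members and lists were chosen with earlier results of these data known. Of 174 list entries, all 174 were found, some by an older symbol. Values in every library are given for the 8 called members with the largest falls and for the rises, and for SRSF1, SRSF2, SRSF3, HNRNPA1, HNRNPK, HNRNPU, SF3B1 and SF3A1, which the rule names whatever their result; from each list up to 3 called genes are named, with HNRNPA2B1, U2AF1 and SRPK1. Alternatives were a pseudocount of 0.1, no filter, a filter at 5 TPM, median-ratio scaling, rescaling to nuclear protein-coding genes, a replicate block, limma without trend or robust estimation, and leaving out each library.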

Additional observations from a re-analysis of the deposited data

How the results depend on the processing

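Of 74 named genes, 61 stayed on the same side of the threshold in all of the 13 alternatives that tested them, and no called gene reversed. The direction of uncalled genes with changes near 0 was not part of this count. Across all genes, 3852 higher and 3963 lower calls became 3001 to 3624 and 3001 to 3923 when a library was left out. Leaving out 1 library gave 1 to 4 members higher, the extremes being 4 without resistant replicate 1 and 1 without resistant replicate 2, all of them SF3 genes; 15 to 18 members lower; and 0 to 1 SF3 genes lower. It also gave 0 to 1 U1 snRNP genes higher, 3 to 6 tri-snRNP genes lower, 1 to 2 PRP19 complex genes higher and 3 to 6 lower, 0 to 1 genes of SR kinases and import higher, 2 to 4 nuclear speckle genes higher, 0 to 1 other regulators higher, and 1 to 3 minor spliceosome genes higher and 2 to 4 lower.

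Same-numbered libraries did not deviate together (r = -0.0583, -0.0017 and -0.0163 across genes), so no pairing by number was seen. This does not exclude a pairing of small effect. With the replicate block, 3433 genes were called higher and 3423 lower; 16 members were lower and 3 higher, 0 SF3 genes were lower, 0 genes of SR kinases and import were higher and 2 minor spliceosome genes were lower. The block also ended the calls of HNRNPR (adjusted p = 0.062), SF3B1 (0.094), SNRPA1 (0.0618), CLK4 (0.0834) and SNRNP48 (0.0586), and SF3B4 passed (0.0499); 5 Sm ring and U2 snRNP genes were higher. Without a filter on low values, 0 SF3 genes were lower and 1 minor spliceosome gene was higher; without trend and robust estimation these counts were also 0 and 1. With a filter at 5 TPM, 0 other regulators were higher, since the 1 that rose lay below it and was not tested. The cause was not tested, apart from the fewer genes or libraries entering some fits. No scaling alternative moved the median of all genes by over 0.1 on the log2 scale. Depth limits only SRSF12 and HNRNPCL1.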
